A study of Homo sapiens with 4 samples.

Results

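CCND1 encodes cyclin D1, the cyclin that activates CDK4 and CDK6 to phosphorylate the retinoblastoma protein and start the passage from G1 to S phase. The chromatin loops and contact domains that deposited Hi-C lists place around this gene are described here for MDA-MB-231 cells, a human triple negative breast cancer (TNBC) line. The locus was taken as the 800 kb window of chromosome 11 from 69000000 to 69800000 (GRCh37), and every loop with at least 1 anchor in the window and every domain overlapping it were kept. This gave 54 loop calls over the 4 libraries, of 77275 calls in all, and 5 domains of 7418. Calls of different libraries were treated as 1 position when linked by anchors lying within 20 kb of each other at both ends, which reduced the 54 calls to 21 positions of 33552 in the genome.

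In each condition 2 Hi-C libraries were made, from cells that received DMSO as the vehicle or 75 nM THZ1, a covalent inhibitor of CDK7, for 48 h. The cells of both conditions carried no stated genetic change and came from this single line. Because the submitters call the libraries technical replicates, p-values measure only the spread between libraries, which may be technical. With 2 libraries against 2, an exact permutation test has 6 splits and cannot give a two-sided p below 0.333.

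CDK7 is the catalytic subunit of the CDK-activating kinase and a part of the transcription factor TFIIH. A loop in a Hi-C map is a pair of distant segments that meet more often than their surroundings, and many loops arise where cohesin, extruding a growing loop of DNA, is stopped by the zinc finger protein CTCF at both anchors. Condensin, the related complex that compacts mitotic chromosomes, also extrudes loops. The window holds the protein-coding genes MYEOV, CCND1, LTO1, FGF19, FGF4 and FGF3, and this part of the long arm of chromosome 11 is recurrently amplified in breast cancers.

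Loops were called by HiCCUPS, which compares the contacts observed at a pixel of the map with those expected from pixels around it. The strength of a loop is given here as observed over expected contacts, with the expectation from the ring of pixels around the peak (the donut). A loop absent from a list has no value there, so that "not called" is not the same as no contact. These lists hold no expression values, and the identity of the cells could only be checked at the tumor suppressor gene CDKN2A, which this line is known to have lost. No library had a loop within 500 kb of CDKN2A, whereas chromosome 9 held between 594 and 953 loops per library.

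The vehicle lists were longer throughout the genome, with 20768 and 24219 loops against 17222 and 15066 in the THZ1 lists, a 1.39-fold ratio of the means. Sequencing depth is not given in the lists. Summed over called loops, contacts came to 622305 and 762701 under vehicle and to 631600 and 551436 under THZ1, and these ranges overlapped. What part depth had in the numbers of loops was not tested.

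The anchors, whose positions came from the loop calls, were also examined in their DNA sequence. CTCF binds a long asymmetric motif whose core was searched as the 12 letters CCA, 2 open bases, AG, 2 open bases and GGC, on both strands and with no other motif searched. A match is only a description of the sequence. The motif was found in 8 of the 28 different 5 kb anchor bins of the locus (28.6%), against 11.99% of 566853 bins of the genome and 25.5% of 29472 5 kb loop anchors in the genome. The matches in the anchors of the loops described first are printed 5′ to 3′ on the strand of the match, from the GRCh37 genome, with the core in capitals. They are shown because they lie in anchors of the loops that all 4 libraries called, and the strand gives the direction in which each points. For the loop toward FADD, the left printed bin was the anchor in 1 library (the first vehicle library) and the right printed bin in 1 other (the first THZ1 library), since the calls were shifted by 5 to 10 kb.

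TPCN2 anchor, intron, chr11:68868428-68868467, plus strand: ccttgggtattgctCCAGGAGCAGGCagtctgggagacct
TPCN2 anchor, intron, chr11:68866900-68866939, minus strand: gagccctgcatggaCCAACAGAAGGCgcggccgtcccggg
LINC02952 anchor, intron, chr11:69255833-69255872, plus strand: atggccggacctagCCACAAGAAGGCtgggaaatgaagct
CCND1 anchor, intron, chr11:69459146-69459185, minus strand: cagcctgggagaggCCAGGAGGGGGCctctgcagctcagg
Anchor between LTO1 and FGF19, chr11:69498815-69498854, minus strand: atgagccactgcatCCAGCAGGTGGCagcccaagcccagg
Anchor between ANO1 and FADD, chr11:70039247-70039286, plus strand: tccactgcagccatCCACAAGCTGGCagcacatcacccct

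None of these stretches overlaps an annotated exon. Upstream of CCND1, a TPCN2 bin held a match on each strand, the LINC02952 bin 1 on the plus strand, and 2 further anchor bins between LINC02952 and CCND1 1 each on the minus strand only. The bin over the start of CCND1 held a match on the minus strand. No match was found in the other 2 TPCN2 bins that served as anchors, in the 5 kb bin just upstream of CCND1, in the bin over the start of FADD, in the bins on MYEOV, or in the upstream bins 75 kb and 50 kb from the CCND1 anchor that are described below, which says only that these letters are not in those bins.

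Fewer loops were called at the CCND1 locus after THZ1, and most of the difference lay in short loops. The vehicle libraries listed 17 and 18 loops, the THZ1 libraries 8 and 11. The groups did not overlap, with means of 17.5 ± 0.707 and 9.5 ± 2.12 (SD, n = 2; 1.84-fold; exact permutation p = 0.333). Per 10000 loops of the same library, this was 8.19 and 7.43 under vehicle against 4.65 and 7.30 under THZ1. On that scale the second THZ1 library lay just below the second vehicle library, and only the first THZ1 library stood apart.

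Both anchors lay inside the window for 11 and 11 vehicle loops against 4 and 5 THZ1 loops (exact permutation p = 0.333). For loops that left the window at 1 end the numbers were 6 and 7 against 4 and 6, and there the groups overlapped (exact permutation p = 0.667).

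**Figure D1:**
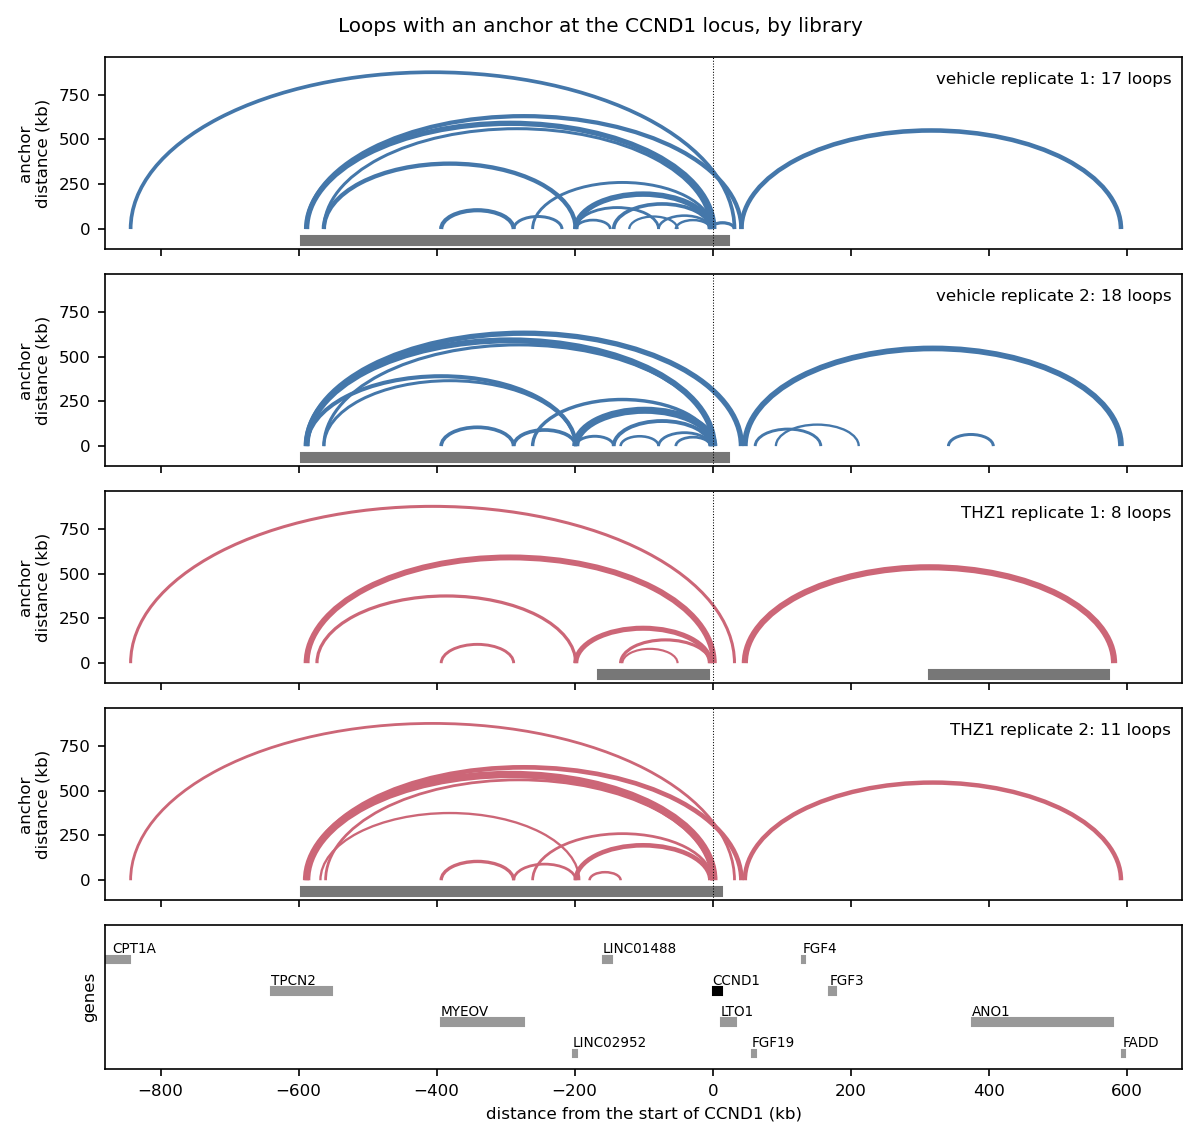
Loops with at least 1 anchor at the CCND1 locus in each library, drawn as arcs over the distance from the start of CCND1 in kb, with arc height equal to the distance between anchors in kb and line width growing with observed over donut expected contacts; gray bars are the called domains and the lowest panel shows genes. The 17 and 18 arcs of the vehicle libraries include many low arcs left of CCND1, while the 8 and 11 arcs of the THZ1 libraries both include the 590 kb arc from TPCN2 to CCND1 and the arc to the neighborhood of FADD.

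By size, 6 loops of 90 kb or less were called in each vehicle library and 1 and 2 in the THZ1 libraries. These were 35.3% (95% Wilson interval 17.3 to 58.7) and 33.3% (16.3 to 56.3) of the locus loops with vehicle and 12.5% (2.24 to 47.1) and 18.2% (5.14 to 47.7) with THZ1. The groups did not overlap (34.3 ± 1.39% and 15.3 ± 4.02%, SD, n = 2; exact permutation p = 0.333), although the intervals of single libraries, which cover counting error only, did. Over the whole genome, loops of this size were 37.3% and 36.8% of the vehicle lists and 26.2% and 25.5% of the THZ1 lists, so the same direction was present outside the locus. The limit of 90 kb is the size the study took for condensin subloops.

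Of loops over 500 kb, the vehicle libraries listed 5 and 4 at the locus, the THZ1 libraries 3 and 5, with overlap. Loops over 90 and up to 200 kb numbered 4 and 5 against 3 and 2, and those over 200 and up to 500 kb 2 and 3 against 1 and 2. The median loop size was 140 and 130 kb under vehicle against 285 and 375 kb under THZ1 (135 ± 7.07 and 330 ± 63.6 kb, SD, n = 2; exact permutation p = 0.333), with no overlap. Genome-wide, each vehicle list had a median of 140 kb and each THZ1 list one of 200 kb.

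**Figure D2:**
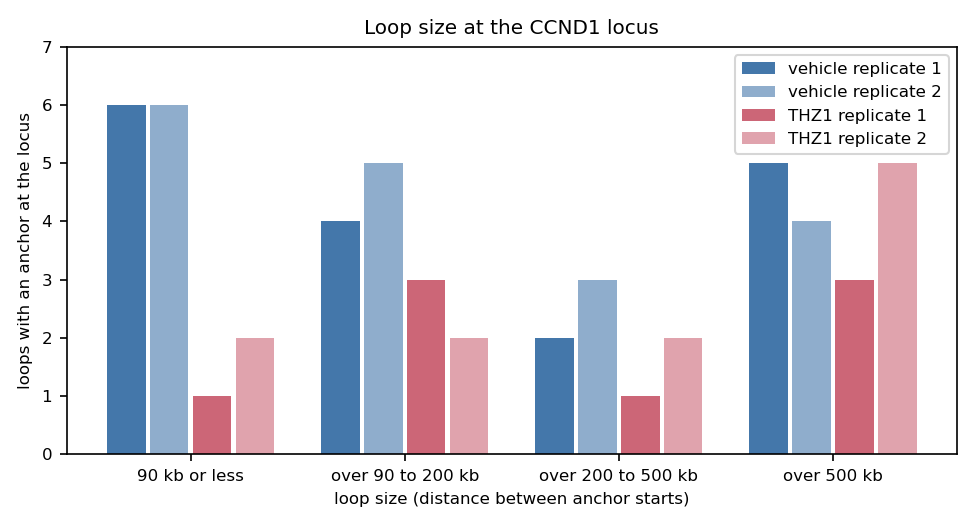
Number of loops with an anchor at the CCND1 locus (vertical axis) in 4 classes of loop size (horizontal axis, distance between anchor starts), 1 bar per library. The vehicle bars reach 6 in the class of 90 kb or less, where the THZ1 bars stand at 1 and 2, and the bars of the class over 500 kb overlap between conditions.

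Of the 21 positions of the locus, 5 were called in all 4 libraries (23.8%, against 26.1% of the positions of the genome). A further 7 were called in 3 libraries (33.3%, against 13.8%), 1 in 1 library of each condition (7.37% in the genome) and 5 in a single vehicle library (28.3% in the genome). A call in each vehicle library and none after THZ1 was found at 3 positions (14.3%, against 9.67% in the genome). No position of the locus was called with THZ1 alone, either in both libraries (2.24% in the genome) or in 1 (12.5% in the genome). Of the 5 single-library positions, 3 belonged to the second vehicle library, the longest list of the series.

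The CCND1 gene itself lies at chr11:69455924-69469242 on the plus strand. The vehicle libraries had 2 and 4 loops with an anchor overlapping the gene and the THZ1 libraries 1 and 3, so the groups overlapped (3 ± 1.41 and 2 ± 1.41, SD, n = 2; exact permutation p = 0.667). The difference of -1 became 0 without the second vehicle library and without the first THZ1 library. When anchors within 10 kb of the gene were counted, the numbers were 9 and 7 against 4 and 5, with no overlap (8 ± 1.41 and 4.5 ± 0.707, SD, n = 2; exact permutation p = 0.333). Nearly all of these ran upstream, with a partner upstream of CCND1 for 8 and 7 under vehicle and for 4 and 5 under THZ1. The median size of the loops within 10 kb was 195 and 200 kb with vehicle and 392.5 and 560 kb with THZ1. They include an 875 kb loop to LTO1, called in the first vehicle library and both THZ1 libraries. Its 25 kb anchor began past the end of CCND1. Apart from it, the loops of the first THZ1 library were of 130, 195 and 590 kb, with the middle value at the vehicle median. These numbers were not scaled to list length, and the vehicle lists were 1.39-fold longer. For loops on a gene, 24.3% of 14380 protein-coding genes had both THZ1 counts below both vehicle counts.

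The CCND1-proximal anchors, on the start of the gene or in the 5 kb bin that ends 924 bases before it, together served 22 loop calls, 8 and 7 under vehicle against 3 and 4 under THZ1. Of these calls, 21 led upstream, 12 had their anchor in that upstream bin and 10 had an anchor overlapping the gene. At the start of the long noncoding RNA gene LINC02952, about 200 kb upstream, 1 bin held 13 anchors, and with neighboring anchors it served 5 and 5 calls against 2 and 4. In TPCN2, each anchor was counted at 1 bin only. An intronic bin served 2 and 3 calls with vehicle and the same numbers with THZ1. A second bin, 25 kb nearer to CCND1, served 2 and 2 against 0 and 1. In each THZ1 library, however, an anchor of the loop to LINC02952 that lay nearer to the second bin was counted at the first. The lower THZ1 numbers at the second bin therefore depend on this assignment. The counts overlapped between conditions at the first TPCN2 bin and did not overlap at LINC02952 or at the CCND1-proximal anchors. They were not scaled to the 1.39-fold longer vehicle lists, and the share of all anchor bins with such a difference was not counted. A share is at hand only for an unlike measure, loops with an anchor overlapping a gene. There 24.3% of protein-coding genes with a loop had both THZ1 counts below both vehicle counts.

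The loop from TPCN2, which encodes a two-pore cation channel of lysosomes, to the start of CCND1 spanned 590 kb and had identical 5 kb anchors in all 4 lists (chr11:68865001-68870000 and chr11:69455001-69460000). Its observed contacts were 33 and 38 under vehicle against 50 and 67 under THZ1. Both THZ1 counts were above both vehicle counts, and the donut expectation was higher as well, at 4.47 and 4.52 against 3.38 and 3.34. Observed over expected was 9.77 and 11.4 under vehicle against 11.2 and 14.8 under THZ1, which overlapped.

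Across the genome, 2619 loops with identical anchors in all 4 lists could be tested with edgeR's quasi-likelihood test, with the donut expectation as offset, and 721 (27.5%) passed at a Benjamini-Hochberg adjusted p of 0.05. Of these, 720 were weaker with THZ1 (27.5%) and 1 was stronger (0.0382%). The median log2 change of all tested loops was -0.41, and 188 (7.18%) lay above 0. The number passing was 227 without the first vehicle library and 0 without any 1 of the other 3 libraries. Loops that were lost from a THZ1 list could not enter this test.

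The TPCN2 to CCND1 loop did not pass this test. Its log2 change was 0.30 (SE 0.21; edgeR adjusted p = 0.281), at rank 13 of 2619 from the highest, and 0.71 above the median of all tested loops. Without each library in turn its log2 change ranged from 0.08 to 0.49, and its rank from 182 to 3. With the bottom-left, horizontal and vertical neighborhoods as expectation, it stood at rank 97, 71 and 54. When observed contacts were compared with no local expectation, after TMM normalization over the called loops, the log2 change was 0.73 (SE 0.20; edgeR adjusted p = 0.0202) and passed, where 2.56% of the tested loops passed as higher with THZ1, 4.16% as lower and 6.72% in either direction. DESeq2 with its own size factors and no expectation gave 0.75 (DESeq2 unadjusted p = 0.0364, adjusted p = 0.983), but 0 of the 2619 loops passed there. The call for higher contacts was thus made only by edgeR, and only without the expectation.

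The second loop of the locus with identical anchors in all 4 lists ran 105 kb within MYEOV, a gene named for its overexpression in myeloma (chr11:69060001-69065000 and chr11:69165001-69170000). It had 35 and 34 observed contacts with vehicle and 29 and 29 with THZ1. Observed over expected was 7.03 and 5.81 under vehicle against 4.01 and 5.04 under THZ1. Both measures were lower in both THZ1 libraries, by a log2 change of -0.51 in strength (SE 0.23; edgeR adjusted p = 0.112), close to the median of all tested loops and short of the threshold. The median log2 strength of these 2 loops was 3.04 ± 0.0201 with vehicle and 2.93 ± 0.261 with THZ1 (SD, n = 2; exact permutation p = 1), a difference of -0.11 that became 0.07 without the first THZ1 library.

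The loop from LINC02952 to CCND1 was called in all 4 libraries but with shifted anchors, since the second vehicle library placed its right anchor over the start of the gene and the others in the bin before it. This loop of 195 to 200 kb had the most contacts of any 5 kb loop of the locus in both vehicle libraries, with 62 and 76, and had 53 and 46 with THZ1. Observed over expected was 10.2 and 14.1 under vehicle against 9.20 and 8.05 under THZ1. Both measures were lower in both THZ1 libraries. Among 4613 loops matched within 20 kb, of which 640 passed (13.9%, with 13.8% weaker and 0.0867% stronger), its log2 change in strength was -0.48 (SE 0.20; edgeR adjusted p = 0.110), which did not pass. The median of all matched loops was -0.37, so that this loop lay close to it on that measure. With no expectation and TMM, its log2 change was -0.46 (SE 0.17; edgeR adjusted p = 0.149), which did not pass either. There the median of all matched loops was 0.000109, and this loop stood at rank 4220 of 4613 from the highest.

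Downstream of CCND1, a loop of 535 to 550 kb joined the interval between LTO1 and FGF19 to the neighborhood of FADD, which encodes the adaptor protein of death receptors. It had 16 and 20 observed contacts with vehicle and 26 and 20 with THZ1. Observed over expected was 7.95 and 10.7 under vehicle against 11.9 and 7.68 under THZ1, so the groups overlapped in both measures. Its log2 change in strength among the matched loops was 0.05 (SE 0.30; edgeR adjusted p = 0.929). The first THZ1 library placed the right anchor 10 kb nearer, on the end of ANO1, which encodes a calcium-activated chloride channel.

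The last position shared by all 4 libraries joined TPCN2 to LINC02952 over 365 to 390 kb. At 5 kb anchors, it was called with 21 contacts in the first vehicle library, with 14 contacts at each of 2 neighboring peaks in the second, and with 14 contacts in the first THZ1 library. Observed over expected there was 7.38, then 6.81 and 4.18, then 4.69. The second THZ1 library called it only with 25 kb anchors, at 103 contacts and 2.62 times the expectation, and this value cannot be set against those of smaller anchors.

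**Figure D3:**
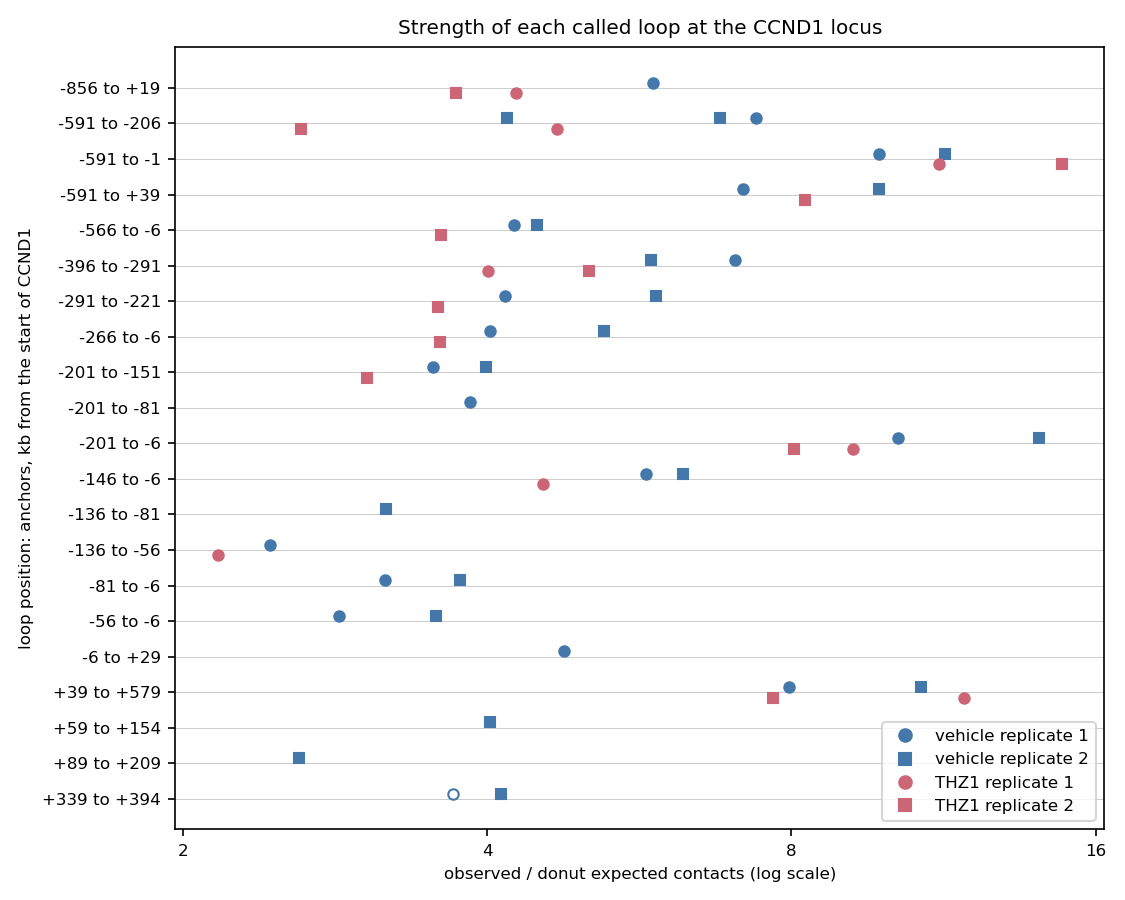
Observed over donut expected contacts (log scale) of each called loop, with 1 row per position named by the starts of its anchors in kb from the start of CCND1; circles are the first and squares the second library of a condition, vehicle in blue and THZ1 in red, and the open circle is a matched call just outside the window. In the row from -591 to -1 the values of the conditions interleave, with the second THZ1 library highest at 14.8, in the row from -201 to -6 they lie left of both vehicle values, and the rows from -81 to -6 and -56 to -6 hold vehicle values only.

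Of the remaining positions with an anchor on CCND1 in any library, the 260 kb loop from the region downstream of MYEOV to CCND1 was called with 10 kb anchors in 3 libraries. It had 43 and 57 contacts with vehicle and 40 in the second THZ1 library, at 4.02, 5.22 and 3.59 times the expectation. A second loop from TPCN2, whose left anchor lay 25 kb nearer, had 27 and 26 contacts with vehicle at 4.26 and 4.48 times the expectation. The second THZ1 library called it with 10 kb anchors, at 3.60 times the expectation. Neither was called in the first THZ1 library. For the 260 kb loop the ratio of the second THZ1 library was below those of both vehicle libraries, and for the loop from TPCN2 the anchor widths differed, so that the ratios cannot be compared.

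The positions that both vehicle libraries and no THZ1 library called were short. A loop of 75 kb from chr11:69375001-69380000 to the bin just upstream of CCND1 had 24 and 29 contacts, at 3.17 and 3.76 times the expectation. A loop of 50 kb from chr11:69400001-69405000 to the same bin had 25 and 36 contacts, at 2.86 and 3.56 times the expectation. The third lay at the far end of the window near the start of ANO1, with 16 contacts in the second vehicle library at 4.12 times the expectation, and the matched call of the first vehicle library, with 14 contacts at 3.70 times, fell just outside the window. Both CCND1-proximal loops lay in the lower part of the range of ratios at the locus, which ran from 2.17 to 14.8. With matching at 50 kb, which merged the 21 positions into 14, 1 position was of this kind.

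The other 11 positions of the locus were called in 1 to 3 libraries, with ratios between 2.17 and 9.77. The highest of them joined TPCN2 to the interval between LTO1 and FGF19 over 630 kb in both vehicle libraries and the second THZ1 library. The longest, at 875 kb and 25 kb anchors, ran from CPT1A, which encodes the carnitine palmitoyltransferase of the outer mitochondrial membrane, to LTO1 in the first vehicle library and both THZ1 libraries. On the telomeric side, FGF19 was touched by 1 loop of the second vehicle library, and no library called a loop on FGF4 or FGF3.

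**Figure D4:**
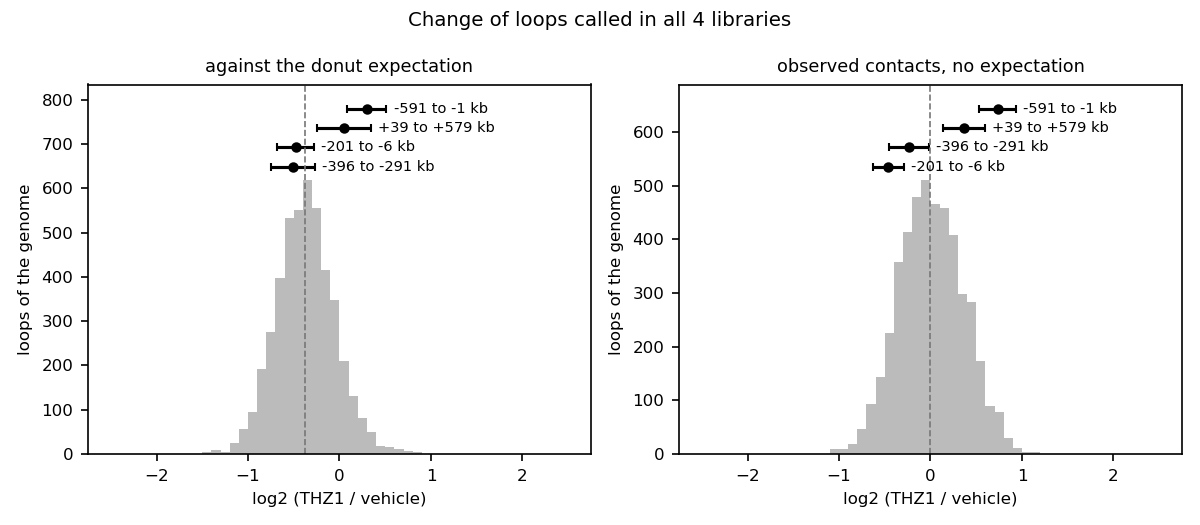
Distribution over 4613 matched loops of the log2 change from vehicle to THZ1 (gray bars, dashed line at the median), left against the donut expectation and right for observed contacts with no expectation; points with SE bars are the 4 loops of the locus, named by anchor starts in kb from the start of CCND1. The loop from -591 to -1 kb lies at 0.30 on the left and 0.73 on the right, and the loop from -201 to -6 kb at -0.48 and -0.46.

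Contact domains, the squares of raised contact that Arrowhead outlines, ended near CCND1 in all 4 libraries. Both vehicle libraries had a domain from chr11:68860001-69480000, 620 kb long, from the TPCN2 intron to just past CCND1, with corner scores of 1.02 and 1.01. The second THZ1 library had nearly the same domain, ending 10 kb nearer at 69470000, with a score of 0.880. The first THZ1 library had no domain over CCND1 but one of 160 kb that ended 5924 bases before its start (chr11:69290001-69450000, score 1.04) and another of 260 kb that began upstream of ANO1 and ended within it (chr11:69770001-70030000, score 1.69). The vehicle libraries had 1 and 1 domains and the THZ1 libraries 2 and 1 (exact permutation p = 1), and the difference was 0 without the first THZ1 library. Genome-wide, the THZ1 lists held 2477 and 2345 domains and the vehicle lists 1198 and 1398.

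To set CCND1 beside its pathway, loops on 22 genes of the G1/S transition were counted, of which 20 had a loop in some library and 13 in all 4. CDKN2A and CDKN2B, neighbors that encode inhibitors of CDK4 and CDK6, had none. In 5 of the 20 genes both THZ1 counts lay below both vehicle counts, and in 0 they lay above, while 24.3% of 14380 protein-coding genes with a loop lay below and 3.47% above. The 5 genes were CDKN1A, CDKN2D, RBL2, E2F3 and CDK2. CDKN1A, which encodes the p53-induced inhibitor p21, had 5 and 6 loops against 3 and 3, and RBL2, a relative of the retinoblastoma gene, 4 and 2 against 0 and 0.

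The other D-type cyclins overlapped between conditions, with 3 and 3 against 3 and 2 loops on CCND2 and 5 and 6 against 7 and 4 on CCND3. Of their kinases, CDK6 had 13 and 15 loops with vehicle and 15 and 14 with THZ1, and CDK4 had 1 loop, in the second vehicle library. Of 9 tested loops on 8 of the listed genes, 3 passed edgeR's test, all weaker with THZ1, against the 27.5% of the genome. They lay on CDK6 (log2 change -0.84, edgeR adjusted p = 0.0290), CDKN1A (-0.77, edgeR adjusted p = 0.00429) and CCNE1 (-0.75, edgeR adjusted p = 0.0265). The CCND1 loop was the only one of the 9 with a log2 change above 0, where 7.18% of all tested loops lay. This difference from the other genes was not tested.

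**Figure D5:**
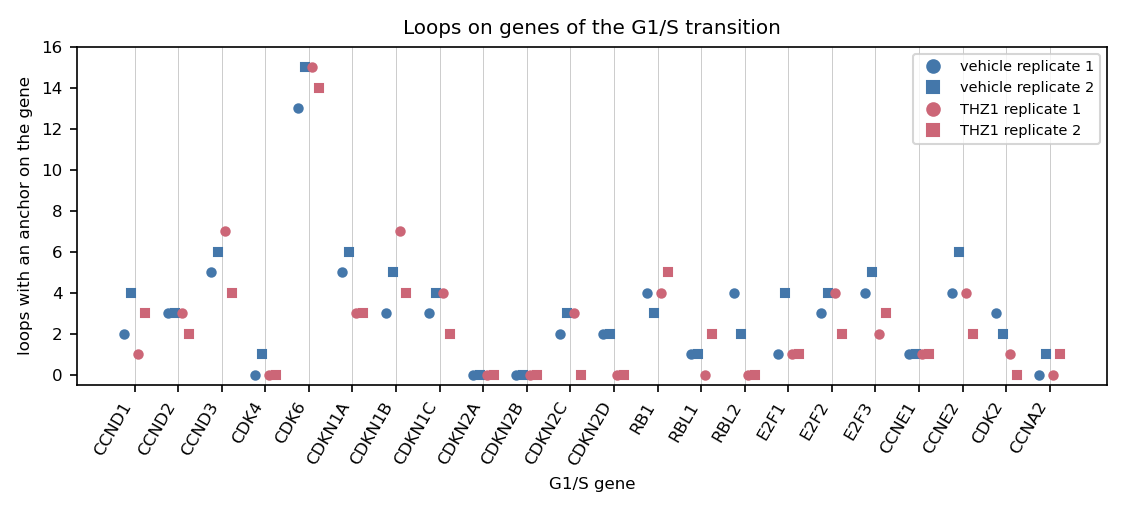
Number of loops with an anchor on each of 22 G1/S genes (vertical axis), 1 point per library, vehicle in blue and THZ1 in red, circles for the first and squares for the second library. The 4 values of CCND1 (2, 4, 1 and 3) interleave between conditions, and those of CDKN1A (5, 6, 3 and 3) do not.

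Among 20135 other protein-coding genes, 5 had the same numbers of loops as CCND1 in all 4 libraries (KRT28, RAC3, RALB, SRBD1 and ZDHHC5). The likeness is the summed absolute difference of loop numbers over the 4 libraries, which was 0 for these genes.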

How the data were processed

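Hi-C was measured with the Arima-HiC chemistry in 2 vehicle and 2 THZ1 libraries. The authors processed reads with Juicer 1.6, and per the file headers the lists came from juicer_tools 1.19.02 on hg19 (GRCh37). For each loop the authors deposited raw counts of contacts at its peak pixel, expected contacts from 4 neighborhoods (a deposited signal on the count scale) and a false discovery rate for each (deposited q-values, at most 0.0997). The deposited domain score is Arrowhead's corner score. Filters and calling settings are not given in the sources used here. The 2 deposited tables of unique loops hold the authors' own comparison and were not used. Called lists depend on depth, since a shallower map passes fewer pixels.

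Groups followed the sample labels. Loop size was the distance between anchor starts. Calls were matched between lists where the midpoints of left and right anchors each differed by at most 20 kb, and an anchor was on a gene when it overlapped it by a base (GENCODE 44 lifted to GRCh37). Exact two-sided permutation was used for single values. Of 2624 loops with identical anchors in all lists, 2619 entered edgeR 4.0.16 (R 4.3.3; 5 had an expected count of 0 in the donut or bottom-left neighborhood in some library), with the log donut expectation as offset. DESeq2 1.42.0, other neighborhoods, TMM, a filter of 20 contacts, anchor widths of 5, 10 and 25 kb, a false discovery rate of 0.01, matching at 50 kb and leaving out libraries were alternatives. In counts simulated on the 2619 loops with 200 changed, the test found 46.5% of them (18.7% at 1.5-fold and 69.7% at 2-fold) and made 1 false call. Python 3.11.15, numpy 2.4.6, pandas 2.3.3, scipy 1.17.1 and matplotlib 3.10.9 were used.

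Named were protein-coding genes overlapping the window or an anchor of its loops. Loops given with every value were those on CCND1, those in all 4 libraries and those in both libraries of only 1 condition. The locus, the G1/S list and the tests were chosen with earlier results of these data known. Loops matched within 20 kb as a second test set and counts per 10000 loops were added after seeing the data.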

Additional observations from a re-analysis of the deposited data

How the results depend on the processing

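Of the settings tried for the number, size, strength and sharing of loops and domains at the locus, 59 kept the direction and the side of the threshold and 14 did not. Values tested by permutation could change only in direction or size, since their p cannot fall below 0.333. The false discovery rate of 0.01 left every value unchanged and so tested nothing. With only 10 kb anchors, the difference in number between THZ1 and vehicle (THZ1 minus vehicle throughout) was 0, that on CCND1 was 0, and the share of loops of 90 kb or less was 25 percentage points higher with THZ1. With only 25 kb anchors the difference in number was 1 and that on CCND1 was 0, both from few loops, and shares and sizes could not be compared. The difference in domains was -0.5 when only those over the start of CCND1 were counted, and the median log2 strength of the loops shared with identical anchors was 0.0839 higher with the vertical neighborhood. With no expectation and TMM, 1 loop of the locus passed edgeR's test, with identical and with matched anchors, against 0 with the donut expectation. With matching at 50 kb, 1 position was called in both vehicle libraries only.

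Without each library in turn, the difference in number ran from -9.5 to -6.5, in median size from 150 to 240 kb, in the share of small loops from -21.8 to -16.1 percentage points, on CCND1 from -2 to 0, in domains from 0 to 1 and in median log2 strength from -0.29 to 0.0749 (without the first THZ1 library). The 0 calls at the locus stayed 0, but this was fixed in the runs where no loop of the genome passed. Those runs are among the settings counted above as kept. Genome-wide, calls fell from 721 to 227 without the first vehicle library and 0 without each of the others, to 48 (horizontal) and 67 (vertical neighborhood), 176 (TMM), 195 (matched loops with TMM) and 56 and 0 (DESeq2 with the donut expectation and with its size factors, the latter with 119 at an unadjusted p under 0.05, where edgeR had 1091). DESeq2 with the donut expectation gave neither loop of the locus an adjusted p.

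Libraries share replicate numbers across conditions, but their deviations were uncorrelated (r = 0.0175 over 2619 loops), so the number was taken only as a name. With the replicate block, 0 loops of the locus and 770 of the genome passed. Counts were low, as the median called loop of the locus had 25 and 26.5 contacts under vehicle and 39.5 and 40 under THZ1. These medians mix anchor widths, and the part of depth in them was not tested.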
